A study of Rattus norvegicus with 8 samples.

Results

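The genes described here are 4 genes of antigen presentation by class II molecules of the major histocompatibility complex (MHC), called RT1 in the rat: Cd74 (ENSRNOG00000018735), which lies outside that complex, RT1-Da (ENSRNOG00000032844), RT1-Ba (ENSRNOG00000000451) and RT1-Bb (ENSRNOG00000032708). They were taken by identifier from the 32285 genes of the deposited table, and all 4 had counts in every library and passed the filter on low counts. Total RNA, depleted of ribosomal RNA, was sequenced from dissected sinoatrial node, where the heartbeat starts, in rats of the inbred Dahl salt-sensitive strain (SS/JrHsdMcwiCrl), which becomes hypertensive on salt. Control rats (4 libraries) were fed 0.4% NaCl and rats of the HFpEF model, named for heart failure with preserved ejection fraction (4 libraries), 8% NaCl, each for 11 weeks; the labels give no further treatment or transgene. Salt intake, blood pressure and heart failure cannot be told apart in this design. The labels used here do not tell whether libraries stand for separate animals, so a p-value speaks only for the spread among libraries, which may be technical.

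Class II molecules are pairs of an alpha and a beta chain that carry peptides from endosomes to the cell surface, where CD4+ T cells read them. The invariant chain, encoded by Cd74, fills the peptide groove of a new pair and guides it to the endosome, where the chain is cut away and a peptide takes its place. Macrophages, dendritic cells and B cells hold most class II in a resting heart, and interferon gamma can induce it in other cells. Transcription of the class II genes and of Cd74 depends on the coactivator CIITA, which docks on factors bound to a short promoter module, including RFX on the X box and NF-Y on the Y box, an inverted CCAAT.

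Because the 4 genes share this module in textbook accounts, the stretch before each gene's first annotated base is printed, with matches to the searched motifs in capitals. The sequences are RefSeq's for build GRCr8 and come from the reference strain, not from the rats sequenced. Positions in rn6, the build named for the counts, were not used here. All 4 symbols were found in the promoter table.
Cd74, chr18:56526956-56527070, plus strand: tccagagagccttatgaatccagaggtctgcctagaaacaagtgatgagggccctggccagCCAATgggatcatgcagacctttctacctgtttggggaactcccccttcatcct
RT1-Da, chr20:4515165-4515392, plus strand: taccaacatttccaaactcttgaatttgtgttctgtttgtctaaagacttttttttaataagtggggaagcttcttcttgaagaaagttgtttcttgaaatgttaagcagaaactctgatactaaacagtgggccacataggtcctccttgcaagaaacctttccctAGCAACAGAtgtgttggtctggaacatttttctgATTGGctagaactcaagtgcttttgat
RT1-Ba, chr20:4576807-4577056, plus strand: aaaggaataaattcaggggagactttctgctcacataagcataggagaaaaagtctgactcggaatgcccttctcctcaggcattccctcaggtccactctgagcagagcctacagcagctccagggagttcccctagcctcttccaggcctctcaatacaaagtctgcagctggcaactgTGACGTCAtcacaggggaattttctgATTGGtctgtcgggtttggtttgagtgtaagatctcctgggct
RT1-Bb, chr20:4604119-4604368, minus strand: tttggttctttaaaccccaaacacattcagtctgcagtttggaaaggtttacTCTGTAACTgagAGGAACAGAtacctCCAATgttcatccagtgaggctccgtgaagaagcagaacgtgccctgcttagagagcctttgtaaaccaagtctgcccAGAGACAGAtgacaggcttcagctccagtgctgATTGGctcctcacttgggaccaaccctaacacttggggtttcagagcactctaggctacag
Capitals mark the Y box core ATTGG (or its complement CCAAT), the X box core AGNNACNGA on either strand, and the cAMP response element TGACGTCA. Positions in the text are counted from the start site of the promoter table, whereas each printed stretch ends before the first base that RefSeq annotates for the gene. These points coincide for RT1-Ba and RT1-Bb, but the stretch ends at -23 for RT1-Da and at -136 for Cd74.

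Each of the 4 promoters held a Y box core, as did 37.5% of the 33469 promoters in the table, whose windows run from 250 bases before the start site to 50 after it. In RT1-Da, RT1-Ba and RT1-Bb a match on the gene's own strand was the longer CTGATTGG, which contains the core and was found in 3.50% of promoters. It lay at -52 to -45 in RT1-Da, at -46 to -39 in RT1-Ba and at -64 to -57 in RT1-Bb, counted from the start site. RT1-Bb also held a core on the other strand, at -172 to -168, without the longer form. Cd74 had its single core on the other strand, at -189 to -185 from the start site, which is -54 to -50 from its first annotated base, with no match to the longer form.

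An X box core, present in 18.1% of promoters, ended 25 bases before the Y box core in RT1-Da and 24 bases before it in RT1-Bb, on the gene's own strand. RT1-Bb held 2 more matches farther upstream. In RT1-Ba the only exact match lay downstream of the start, at 35 to 43. The printed stretch of RT1-Ba held TGACGTCA at -69 to -62, an element found in 1.83% of promoters. No exact match to the X box core was found in the window of Cd74. The longer Y box and TGACGTCA were searched after the sequences had been seen. A match describes letters and shows no binding. Stretches that differ from the searched letters were not counted, so a missing match does not show that a box is absent.

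The same search covered 6 other class II chains that the promoter table holds, of 7 listed. All 6 had a Y box core, 4 had CTGATTGG and 5 had an X box core. On the gene's own strand, X and Y cores 22 to 25 bases apart stood in RT1-Da, RT1-Bb, RT1-Db1, RT1-Db2 and RT1-DOb, and in 13 of the 33469 promoters altogether (0.0388%). That window of distances was set from these class II genes. In the RefSeq gene order, RT1-Ba and RT1-Bb are direct neighbours, and RT1-Da, RT1-Db2, a pseudogene (Arrb2-ps) and RT1-Db1 precede them in that order on chromosome 20.

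**Figure D1:**
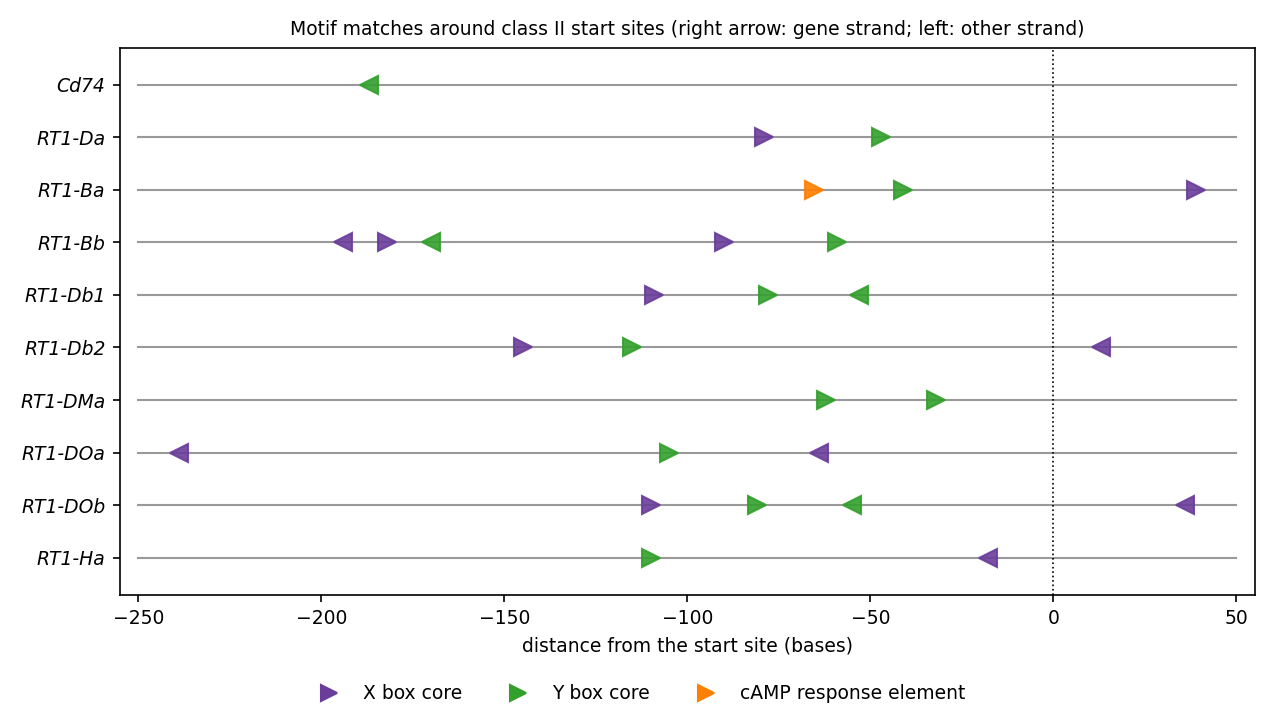
Position of motif matches from 250 bases before to 50 bases after the start site (horizontal axis, bases) in the 4 genes and 6 other class II chains. In RT1-Da and RT1-Bb an X box core precedes a Y box core by 25 and 24 bases. The single Y box core of Cd74 lies on the opposite strand, as does a further core of RT1-Bb.

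In HFpEF the transcripts of 3 class II chains rose. RT1-Da was 3.08-fold higher, RT1-Ba 2.94-fold and RT1-Bb 2.90-fold (edgeR adjusted p = 0.0430, 0.0381 and 0.0381). For Cd74, the invariant chain, the fitted difference was 1.496-fold and did not pass the test (edgeR adjusted p = 0.185). So 3 of the 4 genes were called higher, where 1.54% of the 16313 tested genes were (251 genes) and 1.94% were called in either direction. The 4 genes were chosen with earlier results of these data known, so these shares describe and do not test. Levels are given as normalised CPM, that is, counts scaled to a common library total after TMM scaling. They are compared between libraries only, since gene lengths were not used. In whole tissue, a change in the number of cells carrying a transcript and a change in the amount per cell cannot be told apart.

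RT1-Da encodes the alpha chain of the D molecule, the rat counterpart of human HLA-DR. It stood at 5.36, 7.71, 3.09 and 6.15 CPM in Control replicates 1 to 4 and at 20.3, 9.26, 18.4 and 20.6 CPM in HFpEF replicates 1 to 4. Every HFpEF library lay above every Control library, HFpEF replicate 2 by the least. The Control mean was 5.58 ± 1.92 CPM and the HFpEF mean 17.1 ± 5.34 CPM (SD, n = 4 each). The log2 fold change was 1.62 with a standard error of 0.31 and a 95% interval of 0.92 to 2.33.

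RT1-Ba encodes the alpha chain of the B molecule, the counterpart of human HLA-DQ. Its Control libraries held 3.98, 5.21, 2.80 and 3.59 CPM and its HFpEF libraries 12.8, 5.82, 12.6 and 14.6 CPM, in replicate order. HFpEF replicate 2 again lay just above the highest Control library, and the other HFpEF libraries far above it. The means were 3.90 ± 1.00 and 11.4 ± 3.87 CPM (SD, n = 4 each), and the log2 fold change was 1.56 (95% interval 0.90 to 2.21).

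RT1-Bb encodes the beta chain that pairs with the product of RT1-Ba. It measured 9.85, 12.1, 5.29 and 9.24 CPM in the Control libraries and 29.6, 15.02, 28.4 and 32.4 CPM in the HFpEF libraries. The groups did not overlap. The means were 9.11 ± 2.82 and 26.4 ± 7.75 CPM (SD, n = 4 each), and the log2 fold change was 1.53 (95% interval 0.89 to 2.18). All 8 of its expected counts were non-whole, which RSEM gives where reads fit more than 1 gene, while all values of the other 3 genes were whole. Class II genes are polymorphic between strains, and how well reads of these rats fit the reference was not tested.

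Cd74 stood at 38.2, 40.9, 33.6 and 41.2 CPM in Control and at 66.4, 33.4, 55.2 and 75.1 CPM in HFpEF. Here HFpEF replicate 2 lay at the level of Control replicate 3, with 95% counting intervals of 31.4 to 35.5 and 31.8 to 35.5 CPM, while the other 3 HFpEF libraries lay above every Control library. The means were 38.5 ± 3.52 and 57.5 ± 18.02 CPM (SD, n = 4 each). The fitted log2 fold change was 0.58, with a 95% interval of 0.10 to 1.06. Without HFpEF replicate 2, its log2 fold change was 0.77 and passed the test (edgeR adjusted p = 0.0332), in a fit that called 1.13% of tested genes. Cd74 was called in only this 1 of the 18 alternatives tried. The library left out there was the lowest of HFpEF for Cd74, so its removal by itself raises the difference.

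**Figure D2:**
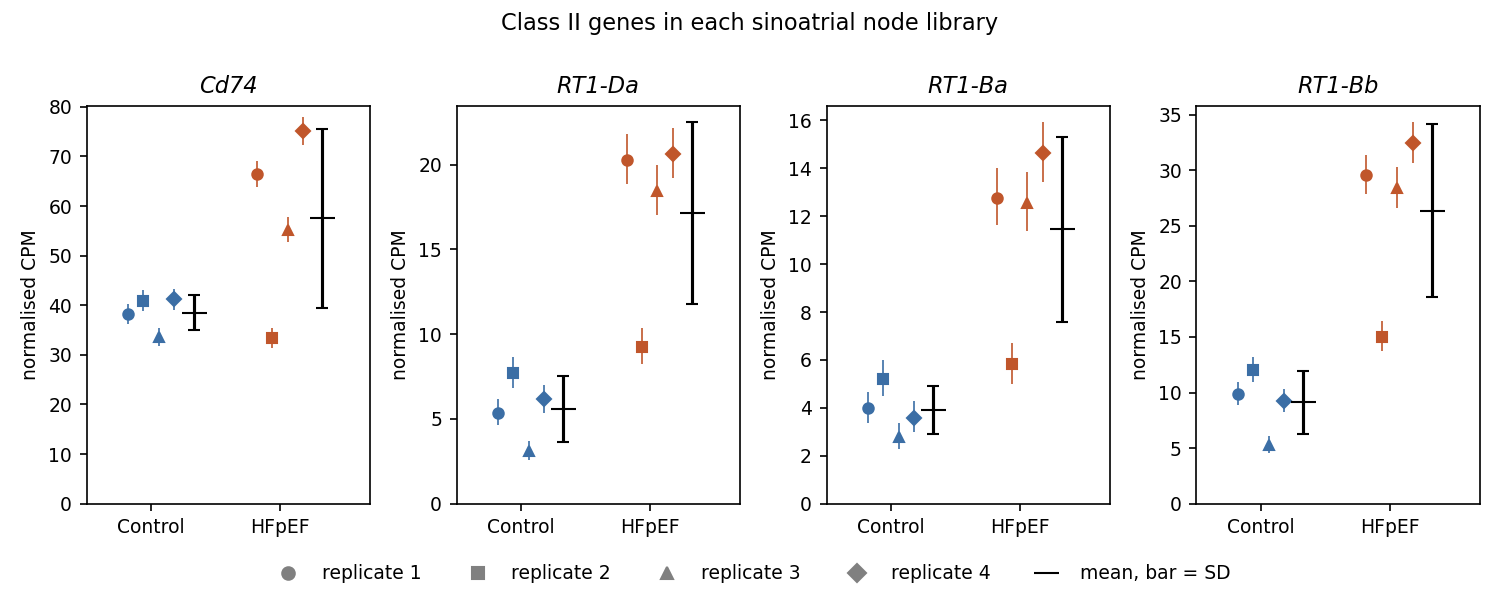
Normalised CPM (vertical axis, from 0) of each gene in every Control and HFpEF library, with thin bars for the 95% counting interval of each library and thick bars for the group mean ± SD (n = 4). HFpEF replicate 2 (square) is the lowest HFpEF library in each panel and lies above all Control libraries except for Cd74, where it lies at the level of Control replicate 3.

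Groups that did not overlap, with HFpEF higher, were found in 3 of the 4 genes and in 6.74% of tested genes. A log2 fold change of at least 1 was fitted for the same 3 genes, RT1-Da, RT1-Ba and RT1-Bb, and for 3.26% of tested genes. An unadjusted edgeR p under 0.05 with HFpEF higher was reached by all 4 genes and by 11.2% of tested genes. As the genes were chosen with earlier results of these data known, these shares too are descriptive. By signed log2 fold change, from the most raised to the most lowered, RT1-Da ranked 201, RT1-Ba 215, RT1-Bb 226 and Cd74 1145 of 16313. The median log2 fold change of the 4 genes was 1.55, beside -0.0041 over all tested genes.

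**Figure D3:**
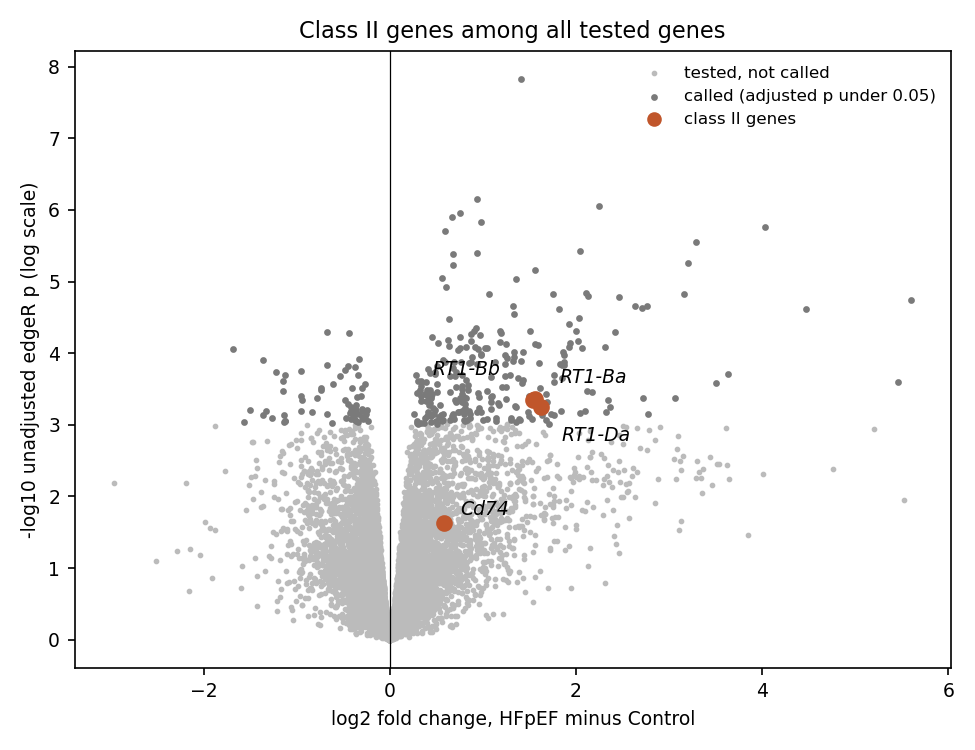
Log2 fold change, HFpEF minus Control (horizontal axis), against -log10 of the unadjusted edgeR p (vertical axis) for the 16313 tested genes. The 3 class II chains lie together at log2 fold changes of 1.53 to 1.62, near the lower edge of the called genes, and Cd74 lies at 0.58 among genes that were not called.

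HFpEF replicate 2 was the lowest HFpEF library for all 4 genes, as it was for 27.4% of tested genes. It stood at 1.66 times the Control mean for RT1-Da, 1.49 times for RT1-Ba, 1.65 times for RT1-Bb and 0.868 times for Cd74. In the other HFpEF libraries the 3 chains stood at 3.12 to 3.76 times the Control mean, and Cd74 at 1.43 to 1.95 times. The pattern in which HFpEF replicates 1, 3 and 4 lay above all Control libraries and replicate 2 below those 3 held in all 4 genes and in 2.87% of tested genes. These patterns were taken from the 4 genes themselves, so the shares beside them describe and do not test. On the first principal component of all tested genes, by contrast, replicate 2 lay farthest from Control, at 51.6 against 10.6 to 26.5 for the other HFpEF libraries and -30.9 to -17.2 for Control. It also had the fewest counts, 31774820 of a range up to 38889395. The part of library depth in these levels was not tested.

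Counting error was small beside that spread. The 95% counting interval of RT1-Da in HFpEF replicate 2 was 8.23 to 10.4 CPM, and that in Control replicate 2, the highest Control library, was 6.84 to 8.65 CPM, so the intervals met. They also met for RT1-Ba (5.01 to 6.72 and 4.50 to 5.998 CPM) but not for RT1-Bb (13.7 to 16.4 and 11.0 to 13.2 CPM). The margin by which replicate 2 cleared the Control libraries was thus smallest, against counting error, for the alpha chains.

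The libraries fell into one order in HFpEF for all 4 genes, with replicate 4 highest, then 1, 3 and 2, an order found in 5.27% of tested genes. In Control, replicate 3 was lowest for each of the 4, and replicate 2 was highest for the 3 chains (8.05% of tested genes showed both), while for Cd74 replicate 4 was highest by a small margin. These orders too were taken from the 4 genes, so their shares are descriptive. The lowest and highest Control libraries differed 2.49-fold for RT1-Da, 2.28-fold for RT1-Bb, 1.86-fold for RT1-Ba and 1.23-fold for Cd74. In HFpEF the corresponding spread was 2.16-fold to 2.52-fold for all 4.

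The calls of the 3 chains were not firm, although their size varied little. Under 18 alternatives the log2 fold changes ran from 1.34 to 1.83, and RT1-Da was called in 7, RT1-Ba in 8 and RT1-Bb in 8. Leaving out any 1 library other than HFpEF replicate 2 lost all 3 calls (edgeR adjusted p = 0.0573 to 0.141), and leaving out that one kept them (edgeR adjusted p = 0.0106 to 0.0250).

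**Figure D4:**
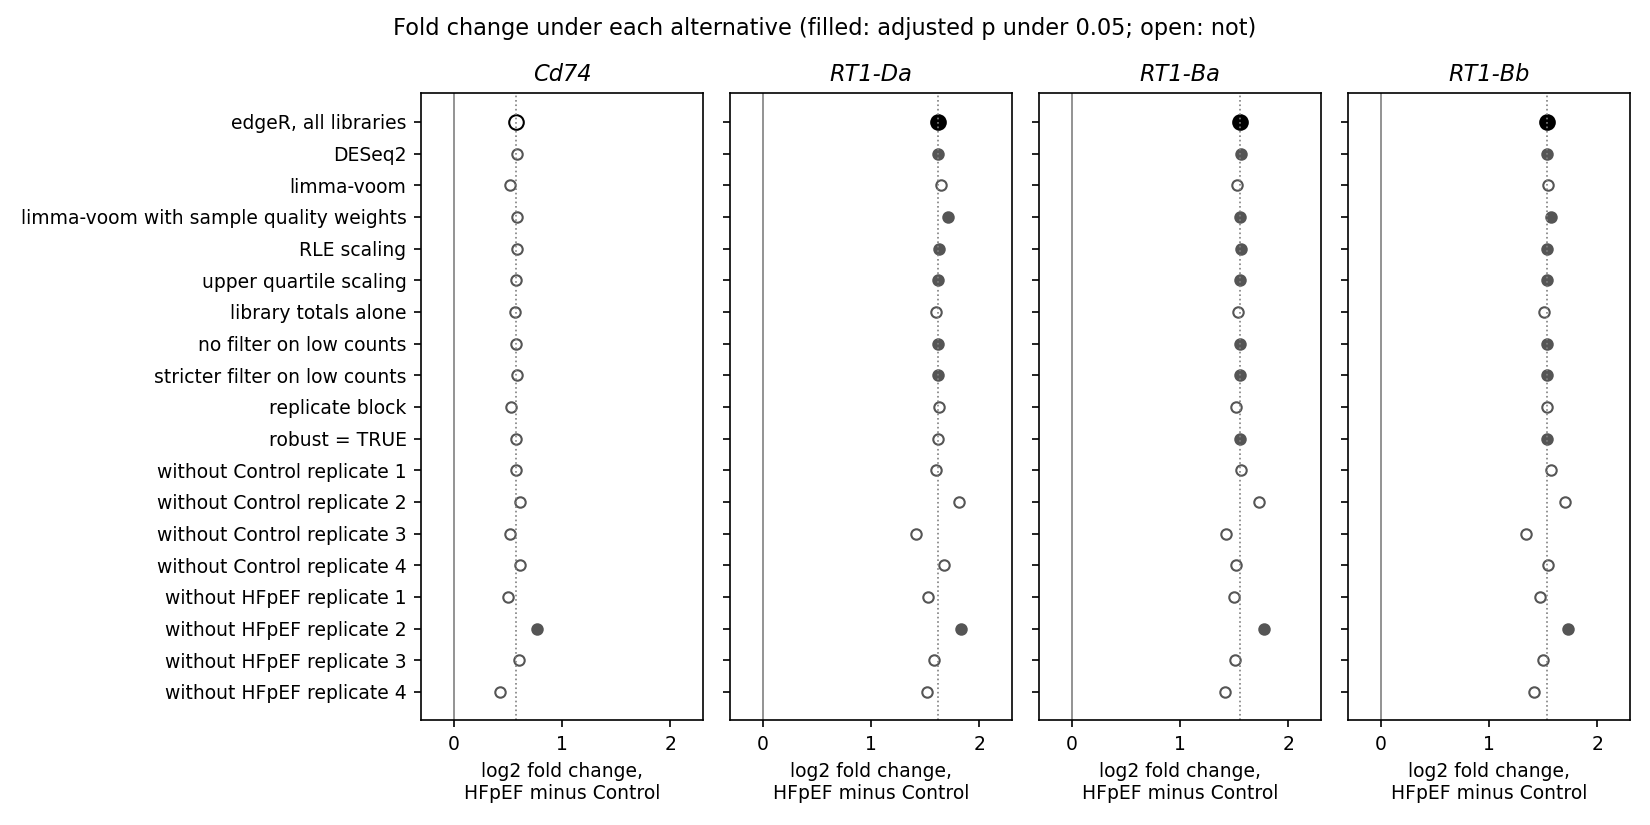
Log2 fold change, HFpEF minus Control (horizontal axis), of each gene with all libraries and under each of 18 alternatives (rows); filled points have an adjusted p under 0.05. The chains stay between 1.34 and 1.83 while their points switch between filled and open, and Cd74 is filled only without HFpEF replicate 2.

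Whether the 4 transcripts moved by one factor was asked from the ratio of their counts within each library, which no library scaling can alter. The count of RT1-Da was 14.03%, 18.8%, 9.20% and 14.9% of that of Cd74 in Control replicates 1 to 4 and 30.5%, 27.7%, 33.4% and 27.5% in HFpEF replicates 1 to 4. RT1-Bb stood at 15.8% to 29.5% of Cd74 in Control and 43.2% to 51.5% in HFpEF, and RT1-Ba at 8.34% to 12.7% and 17.4% to 22.8%. For all 3 ratios the groups did not overlap. The 3 ratios share the count of Cd74, so they are not separate observations. How often ratios of other genes to Cd74 separate the groups was not counted. HFpEF replicate 2, low in the level of each gene, was at 27.7%, 44.9% and 17.4% for RT1-Da, RT1-Bb and RT1-Ba, above every Control library.

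The mean log2 ratio to Cd74 was higher in HFpEF by 1.10 for RT1-Da, 0.99 for RT1-Ba and 1.01 for RT1-Bb. Each gave an exact two-sided permutation p of 0.0286, the smallest that 70 splits allow. Benjamini-Hochberg adjustment over the 6 ratios compared gave 0.0571, which missed 0.05. With only these 3 ratios at the smallest p, the adjusted value could not be lower, whatever the size of the differences. None of the 3 ratios between chains passed the test, which does not show that the chains moved alike. The differences were -0.12 for RT1-Ba to RT1-Da (exact permutation p = 0.514, adjusted p = 0.617), -0.09 for RT1-Bb to RT1-Da (p = 0.286, adjusted p = 0.429) and 0.03 for RT1-Bb to RT1-Ba (p = 0.829, adjusted p = 0.829). With 1 library left out, the first ran from -0.22 (without Control replicate 4) to -0.0056 (without Control replicate 3) and the second from -0.14 (without Control replicate 4) to -0.04 (without Control replicate 1), and none passed the test. The ratio of RT1-Bb to RT1-Ba, the chains of one molecule, had a mean log2 value of 1.201 ± 0.197 among Control libraries and 1.226 ± 0.098 among HFpEF libraries (SD, n = 4 each).

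**Figure D5:**
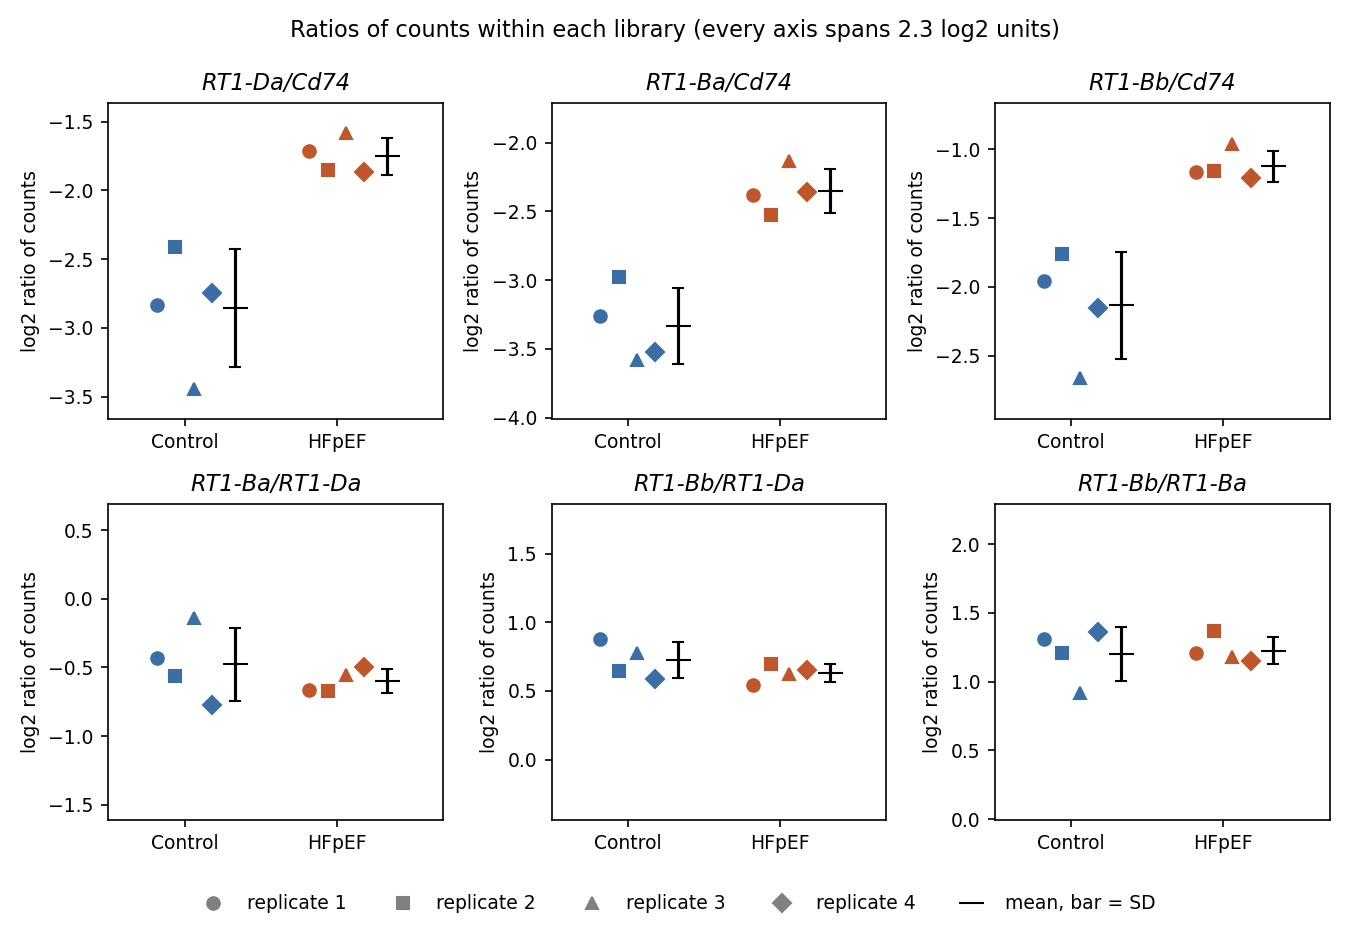
Log2 ratio of the counts of 2 genes (vertical axis, the same span in each panel) in every library, with the group mean ± SD (n = 4). The 3 ratios to Cd74 (top), which share its count, separate the groups, by 0.99 to 1.10 in the means. The 3 ratios between chains (bottom) overlap.

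The genes whose pattern over the 8 libraries was most like the mean of the 4, by root mean square difference of log2 CPM centred on the Control mean, are known here by identifier only. In HFpEF the mean of the 4 lies between the chains and Cd74, so a gene between them can be nearer to it than any member. ENSRNOG00000033215 was the nearest, at a difference of 0.0877, closer than RT1-Ba (0.167), RT1-Bb (0.189), RT1-Da (0.258) or Cd74 (0.570) were to their own mean. It stood at 7.44, 9.40, 4.27 and 8.04 CPM in Control and at 20.3, 10.2, 19.0 and 24.3 CPM in HFpEF, with the same low HFpEF replicate 2. Its log2 fold change was 1.34 and missed the threshold (edgeR adjusted p = 0.0555). ENSRNOG00000022884 came next at 0.228, from a mean of 0.345 CPM in Control to 0.877 CPM in HFpEF (edgeR adjusted p = 0.126). Of the 16309 tested genes outside the set, 252 (1.55%) were nearer to the mean than Cd74 was, 6 were nearer than RT1-Da, and 1 was nearer than RT1-Ba or RT1-Bb.

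The identifiers were matched to no symbol beyond these 4, so other genes of the pathway (CIITA, RFX and interferon gamma signalling, peptide loading, class I) and markers of macrophages, dendritic cells, B cells, T cells and pacemaker cells were not analysed here. The tissue label was therefore not checked against its markers, and the part of cell numbers in these differences was not tested.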

How the data were processed

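The authors deposited 1 table of RSEM expected counts per Ensembl gene, with no normalization. Bowtie2 2.1.0, RSEM 1.2.15 and build rn6 are named per the submitters' processing notes; the annotation, the read filters and any strand setting were not given in the sources used here. Expected counts were rounded, genes kept with filterByExpr (16313), libraries scaled by TMM, and HFpEF compared with Control by edgeR 4.0.16 (R 4.3.3) with the quasi-likelihood test, two-sided, Benjamini-Hochberg adjusted over all tested genes, threshold 0.05. Total counts were 31774820 to 38889395 per library; 95% intervals of a count are exact Poisson and cover counting error only. Counts of any 2 libraries of one group differed beyond sampling noise (lowest chi-square over its degrees of freedom 19.3). The standard error of a log2 fold change was its absolute value divided by the square root of the edgeR F statistic. The 95% interval of a log2 fold change was built from that error with the t distribution. Ratios were compared by exact permutation. Values were called whole within 0.005. The alternatives tried were limma-voom from limma 3.58.1 both plain and weighted by sample, DESeq2 1.42.0, 3 scalings, 2 filters, robust = TRUE, the replicate number as a block, and each library left out.

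The members and lists were chosen with earlier results of these data known. Named genes were the 4 members, listed pathway genes with a symbol (0 of 32285 identifiers matched the RefSeq table), and the nearest patterns, of which at most 2 are printed by identifier. The groups share the numbers 1 to 4, which the labels do not say pair the libraries.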

Additional observations from a re-analysis of the deposited data

How the results depend on the processing

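The chains RT1-Da, RT1-Ba and RT1-Bb and Cd74 were higher in HFpEF under all 18 alternatives, and the calls of the chains held under DESeq2, limma-voom with sample weights, RLE and upper quartile scaling and both filters on low counts. Log2 fold changes of RT1-Da, RT1-Ba and RT1-Bb fell short of the threshold at 1.64, 1.53 and 1.55 with limma-voom (adjusted p = 0.0566, 0.0646 and 0.0525), at 1.598, 1.53 and 1.51 with library totals alone (edgeR adjusted p = 0.0540, 0.0531 and 0.0535), and for RT1-Da at 1.62 with robust = TRUE (edgeR adjusted p = 0.0510). With 1 library left out they ran from 1.42 to 1.83, 1.42 to 1.78 and 1.34 to 1.73, and Cd74 from 0.43 to 0.77. The number of called genes was 316, 1248 with DESeq2 (856 higher, 392 lower), 169 with library totals alone and 22 to 332 with 1 library left out, where fewer libraries enter the test; the other causes were not tested. The log2 ratio of RT1-Bb to RT1-Ba, which was not called, went from 0.03 to between -0.068 and 0.0798 with 1 library left out, and was -0.068 without Control replicate 3 and -0.022 without HFpEF replicate 2. Adding 0.5 to each count left all 6 ratios on the same side.

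The replicate block gave RT1-Da 1.63, RT1-Ba 1.52 and RT1-Bb 1.54 on the log2 scale, none called (edgeR adjusted p = 0.136, 0.141 and 0.124), with 6 genes called in all. Same-numbered libraries correlated in their deviations at -0.022, -0.056, 0.068 and -0.162, so the numbers were not treated as a pairing; the best match of a library carried its own number in 2 of 8 cases.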

Other observations

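Among 20 sets of 4 values (the level of each gene and each ratio, by group), 0 held a library standing apart by Dixon's test. The highest value was 0.807, under the critical value, for the level of RT1-Da in HFpEF. The levels of RT1-Bb and RT1-Ba in HFpEF gave 0.770 and 0.764. For these 3 chains the widest gap lay just above HFpEF replicate 2, the lowest library. With 4 values that test finds only extreme cases. The biological coefficient of variation fitted by edgeR was 27.9% to 30.5% for the 3 chains and 21.5% for Cd74, beside a median of 12.97% over all tested genes.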
